A study of Mus musculus with 24 samples.

Results

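The genes described here are 10 members of 2 guidance systems, the Slit ligands with their Robo receptors and netrin-1 with its UNC5 receptors, in mouse embryonic fibroblasts (MEFs) treated with potassium bromate (KBrO3), bisphenol A (BPA) or both. The members are Slit1, Slit2, Slit3, Ntn1, Robo1, Robo2, Robo3, Robo4, Unc5b and Unc5c. They were taken as the probes that carry one of these gene names on the array, which gave 25 of 41174 probes and 10 of the 18440 protein-coding genes with a probe. The gene names were listed with their treatment differences in these arrays already known, so the differences between treatments below are descriptions. They carry no p-value, and counts of members past a threshold are printed without being read as a result.

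All cells were immortalized MEFs in which Ku70 (Xrcc6), a subunit of the complex that binds broken DNA ends, is deleted. The untreated cells carry the deletion too, so no array shows cells with Ku70. The 24 single-color Agilent arrays form 2 sets, scanned and extracted with different software versions, and each group has 3 biological replicates. The first set of 15 arrays holds untreated cells labeled 4 hr, KBrO3 alone (4 and 24 hr) and both agents together (co-exposure, 4 and 24 hr). The second set of 9 arrays holds its own untreated cells, whose labels give no time, and BPA alone at 4 and 24 hr. KBrO3, an oxidant, was given at 20 mM for 1 hr and washed out, and BPA, a plasticizer component with estrogenic activity, was given at 150 µM. In the co-exposure BPA was present before, during and after KBrO3. The labels put BPA alone at 4 and 24 hr, whereas the methods give 5 and 25 hr in BPA medium. The first set has no 24 hr untreated group, so its 24 hr arrays were compared with the same untreated arrays as its 4 hr arrays, and all comparisons with control within a set share those 3 arrays.

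Slits are large secreted proteins that bind Robo receptors on the cell surface and repel growing axons and migrating cells. Netrin-1 attracts cells through DCC and neogenin and repels them through UNC5 receptors. UNC5 receptors are also known as dependence receptors, which promote apoptosis when netrin is absent. Fibroblasts and other mesenchymal cells are known sources of Slit proteins, and outside the nervous system these genes are studied in vessel growth, lung and kidney development and cell migration.

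Levels are given as the log2 signal of a probe relative to the 75th percentile of its array. A level of 0 is therefore the signal at that percentile, and a step of 1 on this scale is a 2-fold step in signal. Levels of different probes are not compared with each other, because a probe's brightness also depends on its sequence. Each gene is given by its brightest probe over the 24 arrays unless stated. SE is the standard error of a difference from the linear model of a set, which pools the spread of all its groups.

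The arrays limit what can be said in several ways. Between 57.7% and 68.1% of spots were well above background on the first-set arrays, and between 76.4% and 79.4% on the second. A tested probe of the first set had a median residual SD of 0.11, and one of the second 0.32, so a difference has to be larger in the second set to stand out from its replicates. Xrcc6 has 1 probe, at −0.60 to 0.73 over all 24 arrays and well above background on each. That probe does not check the deletion, because its place relative to the deleted part is not given in the sources used here. Of 10 fibroblast markers 9 were well above background on all 24 arrays. Of 8 endothelial markers 4 were so (Kdr, Tek, Vwf and Esam), and Pecam1 and Cdh5 were so on no first-set array. Of 5 macrophage markers Cd68 was so on all 24, and the leukocyte gene Ptprc on none. None of 4 epithelial markers was so on all 24, though Krt18 was on 20, and of 4 muscle markers Actc1 was.

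Of the 10 members, 8 had a brightest probe bright enough to test in the first set and all 10 in the second. In the first set Robo2 and Robo4 were left out. To be tested, a probe had to be well above background throughout 1 or more groups of its set. A gene is counted as called where its Bonferroni-adjusted p in limma was below 0.01 over all probes tested and its fold change was beyond 1.5.

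**Figure D1:**
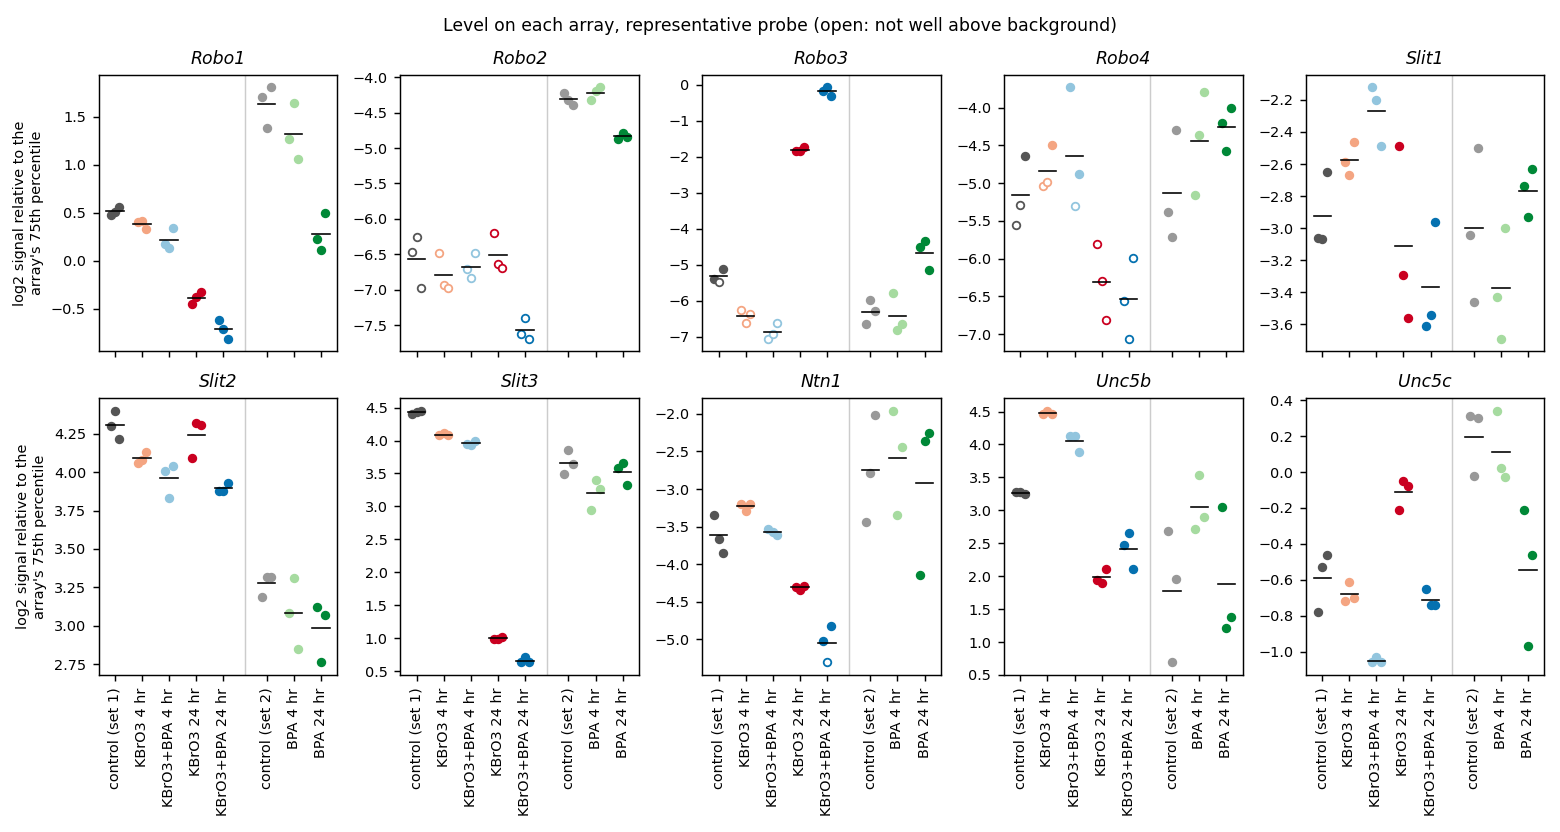
Level of each member on each of the 24 arrays, as log2 signal relative to the array's 75th percentile (vertical axis) by group (horizontal axis). Each point is 1 array, open points are not well above background, and the 2 sets are drawn side by side. The Slit3 points at 24 hr with KBrO3 lie between 0.63 and 1.02, against 4.40 to 4.45 in the untreated cells of the same set, and the Robo3 points there lie between −1.85 and −0.06.

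Because Robo3, Slit3 and Unc5b had the largest differences between 4 and 24 hr after KBrO3, with and without BPA, the 250 bases before their start sites are shown, read from the RefSeq promoter table for GRCm38.p6. Capitals mark matches to the GC box GGGCGG on either strand, where the other strand reads CCGCCC. Each is written 5′ to 3′ on the strand of its gene.
Robo3, chr9:37433176-37433425, minus strand: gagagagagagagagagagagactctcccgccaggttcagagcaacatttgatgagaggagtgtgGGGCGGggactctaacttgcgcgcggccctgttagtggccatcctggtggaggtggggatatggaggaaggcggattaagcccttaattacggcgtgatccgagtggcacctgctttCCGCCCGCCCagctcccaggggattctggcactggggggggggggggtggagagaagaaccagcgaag
Slit3, chr11:35121206-35121455, plus strand: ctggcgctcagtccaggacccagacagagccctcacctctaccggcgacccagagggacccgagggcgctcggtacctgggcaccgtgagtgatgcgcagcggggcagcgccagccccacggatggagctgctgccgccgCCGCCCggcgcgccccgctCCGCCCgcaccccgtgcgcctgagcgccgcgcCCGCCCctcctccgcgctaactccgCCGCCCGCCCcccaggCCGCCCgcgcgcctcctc
Unc5b, chr10:60831582-60831831, minus strand: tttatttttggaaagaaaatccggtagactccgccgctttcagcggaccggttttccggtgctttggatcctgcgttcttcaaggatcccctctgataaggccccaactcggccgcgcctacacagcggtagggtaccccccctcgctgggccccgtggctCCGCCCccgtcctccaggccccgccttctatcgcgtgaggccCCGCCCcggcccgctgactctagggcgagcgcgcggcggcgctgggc

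The Slit3 window is 78.8% G and C with 35 CpG pairs, the Unc5b window 66.8% with 27 and the Robo3 window 61.2% with 12, where the median over all 32851 promoter windows of this length is 52.4%. GC boxes were found on the other strand 6 times in Slit3 and 2 times in Unc5b. In Robo3 there was 1 on the gene's strand and 2 that overlap on the other. A GC box stood in 32.7% of all promoter windows. The TATA box TATAAA (12.4% of windows), the E-box CACGTG (6.02%), the AP-1 site TGANTCA (6.75%) and the antioxidant response core TGACNNNGC (10.2%) were searched on both strands and none was in these 3 windows. A match is a run of letters and no measured binding site. Of the 10 members, 8 had an entry in the table, with 10 windows between them, and Slit1 and Ntn1 had none.

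Among the ligands, Slit3 was bright in untreated cells and had the lowest levels of all groups at 24 hr after KBrO3, with and without BPA. Slit3 is a secreted Robo ligand with a part in diaphragm development. It read 4.40, 4.44 and 4.45 on the untreated arrays of the first set and 4.08, 4.11 and 4.08 at 4 hr after KBrO3. At 24 hr after KBrO3 the levels were 0.98, 0.99 and 1.02. With co-exposure they were 3.94, 3.93 and 4.00 at 4 hr and 0.64, 0.71 and 0.63 at 24 hr. The 4 treated groups each lay below the untreated arrays without overlap.

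The Slit3 difference from untreated cells was −3.43 ± 0.036 (SE, n = 3 against 3) on the log2 scale at 24 hr after KBrO3, a signal 10.8-fold lower. With co-exposure it was −3.77, or 13.7-fold lower, while at 4 hr the differences were −0.34 and −0.48. Between 4 and 24 hr the level was 8.51-fold lower after KBrO3 and 9.84-fold lower after co-exposure. The second Slit3 probe, which lies within the RefSeq transcript upstream of the first, gave −1.94 and −2.27 at 24 hr and 0.02 and −0.16 at 4 hr. The first is annotated to a cDNA clone. Both probes were lower at 24 hr, though by different amounts. With BPA alone Slit3 read 2.94, 3.40 and 3.26 at 4 hr and 3.59, 3.66 and 3.33 at 24 hr, against 3.49, 3.85 and 3.64 in the untreated cells of that set. The differences were −0.46 at 4 hr, where the BPA arrays lay below the untreated ones without overlap, and −0.13 at 24 hr (SE 0.20).

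The summed linear signal of the 10 fibroblast markers, in units of the array's 75th percentile, was also lower at 24 hr. It ran from 1360 to 1455 in untreated cells, from 1238 to 1297 at 4 hr and from 496 to 547 at 24 hr after KBrO3. With co-exposure it ran from 1061 to 1092 at 4 hr and from 382 to 433 at 24 hr. In the second set it was 526 to 669 untreated, 567 to 637 at 4 hr and 485 to 555 at 24 hr with BPA. The summed level of the 8 neuronal markers, of which Map2, Stmn2 and Tubb3 were well above background on all 24 arrays, ran from 1.57 to 1.61 in untreated cells of the first set. At 24 hr it was 2.19 to 2.38 after KBrO3 and 1.31 to 1.55 with co-exposure. In the second set it was 4.59 to 5.53 untreated and 1.95 to 2.29 at 24 hr with BPA. At 4 hr it was 1.03 to 1.20 after KBrO3, 1.03 to 1.06 with co-exposure and 2.80 to 2.98 with BPA. The neuronal sum was thus lower than in untreated cells in all 3 treatments at 4 hr, and at 24 hr it was higher after KBrO3 alone. In the first set the 4 hr sums followed Map2 and Stmn2. Tubb3 went the other way there, with a mean of −1.99 untreated, −1.47 after KBrO3 and −0.94 with co-exposure. The higher sum at 24 hr after KBrO3 came mostly from Stmn2, at 0.25 against −0.76 untreated, while Map2 read −0.57 against −0.59.

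The 4 muscle markers summed to 1.95 to 2.35 in untreated cells of the first set, 2.23 to 2.27 at 4 hr after KBrO3 and 1.79 to 1.97 with co-exposure. At 24 hr they summed to 0.58 to 0.60 and 0.20 to 0.23, below every untreated array. In the second set the sum was 1.96 to 3.04 untreated, 2.22 to 3.02 at 4 hr and 1.00 to 1.40 at 24 hr with BPA. Actc1 made up nearly all of it, with a mean of 1.04 in untreated cells of the first set. Myod1 and Myog were dim and higher at 4 hr with co-exposure (−4.32 against −5.30 and −5.13 against −6.65), where Actc1 was lower (0.83). Des was well above background on no array. The 5 macrophage markers summed to 0.15 to 0.20 untreated, to 0.63 to 0.68 at 4 hr and 0.30 to 0.35 at 24 hr after KBrO3, and to 0.48 to 0.49 and 0.41 to 0.51 with co-exposure. That sum was above the untreated arrays in all 4 treated groups, mostly through Cd68, whose mean level was −3.08 untreated and −1.92 to −0.83 in them. Csf1r was lower than untreated at 24 hr with co-exposure (−5.54 against −4.96), and Adgre1, at −6.89 untreated and −7.69 to −6.60 treated, was well above background on 1 first-set array. The 8 endothelial markers summed to 0.25 to 0.30 untreated, to 0.36 to 0.45 at 4 hr and 0.27 to 0.37 at 24 hr after KBrO3, and to 0.42 to 0.47 and 0.22 to 0.23 with co-exposure. The endothelial sum was thus above the untreated arrays in both 4 hr groups, where Unc5b was higher too, and below them at 24 hr with co-exposure. At 24 hr after KBrO3, where Unc5b was lower, the sum overlapped the untreated arrays. The 4 epithelial markers summed to at most 0.12 on every first-set array. The part of these shifts in the levels of Slit3 and the other members was not tested. In RNA from whole cultures, fewer cells that express a gene and less RNA per cell cannot be told apart.

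The brightest Slit2 probe differed from untreated cells by at most 0.41, and other Slit2 probes differed by more. Slit2, the ligand best known for repelling axons at the midline, read 4.30, 4.40 and 4.22 in untreated cells of the first set. Over the 12 treated arrays of that set it ran from 3.83 to 4.32. The difference from control was −0.22 and −0.07 (SE 0.072) at 4 and 24 hr after KBrO3 and −0.35 and −0.41 with co-exposure. A second probe in the same transcript gave −0.70 and −0.24 after KBrO3 and −0.63 and −0.72 with co-exposure. Another probe, annotated to a cDNA clone and well above background on all 24 arrays, gave −1.22 and 0.01 after KBrO3 and −0.48 and −0.58 with co-exposure (SE 0.097). With BPA alone that probe gave 1.41 and 0.24 (SE 0.47). A dimmer probe, well above background on 1 of the 3 untreated arrays, gave 1.19 at 4 hr with co-exposure (SE 0.22). The probes thus disagree. At the brightest probe with BPA alone the differences were −0.20 and −0.29 (SE 0.20).

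Slit1, a ligand found mainly in the nervous system, was dim but well above background on all 24 arrays. It read −3.06, −3.07 and −2.65 in the untreated cells of the first set. At 24 hr after KBrO3 the arrays gave −2.49, −3.29 and −3.56, which overlap the untreated ones. With co-exposure Slit1 stood at −2.12, −2.20 and −2.49 at 4 hr, above every untreated array, and at −3.61, −3.54 and −2.96 at 24 hr. The differences from control were 0.35 and −0.18 (SE 0.25) for KBrO3 alone and 0.66 and −0.44 with co-exposure. On the slide that held 1 untreated array and the 3 arrays at 4 hr after KBrO3 the Slit1 difference was 0.08. No Slit1 difference from control with BPA alone exceeded 0.37 in size (SE 0.28).

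Ntn1, the secreted ligand of the UNC5 receptors, had its lowest levels of the first set at 24 hr with co-exposure at its brightest probe. It read −3.34, −3.66 and −3.85 in untreated cells and −3.20, −3.29 and −3.20 at 4 hr after KBrO3. At 24 hr the arrays gave −4.30, −4.34 and −4.29 after KBrO3. With co-exposure they gave −3.53, −3.57 and −3.61 at 4 hr and −5.02, −5.31 and −4.82 at 24 hr, where the second array was not well above background. The 24 hr groups lay below the untreated arrays and did not overlap each other.

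The Ntn1 difference from untreated cells was −0.69 ± 0.13 (SE) at 24 hr after KBrO3, or 1.62-fold lower, and −1.43, or 2.70-fold lower, with co-exposure. Adding BPA went with a level 1.67-fold lower at 24 hr (−0.74). Within the slide that held 2 arrays of each of those groups it was −0.85. The brightest Ntn1 probe is annotated to a cDNA clone. A second, dimmer Ntn1 probe, annotated to the RefSeq transcript, was well above background on 6 first-set arrays. It was so on no untreated array and on none at 24 hr with co-exposure, so it gives no measured size for these differences. It was so on all 3 arrays at 4 hr with co-exposure, at −5.11, −4.58 and −4.79, above every untreated array, which read −6.95, −7.65 and −5.37. At 24 hr after KBrO3 it was so on 2 of 3, at −5.40, −7.58 and −4.63, which overlap the untreated arrays and do not show the lower level of the brightest probe. With BPA alone Ntn1 spread from −4.14 to −2.25 at 24 hr and from −3.44 to −2.01 in its control, so the groups overlap.

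Among the receptors, Robo3 went from near background to clearly measured levels at 24 hr after KBrO3. Robo3 is a divergent Robo, known for letting commissural axons cross the midline. In the deposited processed signal it alone of the 8 members tested was more than 1.5-fold higher at 24 hr after both KBrO3 treatments. Robo3 passed the filter of the first set only through those 24 hr groups, so nothing is read from its standing alone. In untreated cells its brightest probe read −5.40, −5.47 and −5.11, and the second of these arrays was not well above background. At 4 hr no array was well above background, with −6.26, −6.61 and −6.38 after KBrO3 and −7.06, −6.93 and −6.63 with co-exposure. At 24 hr the arrays gave −1.85, −1.84 and −1.74 after KBrO3 and −0.16, −0.06 and −0.31 with co-exposure. The 24 hr groups lay far above every other array of the set and did not overlap each other.

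In the deposited processed signal Robo3 was, on the log2 scale, 3.51 ± 0.13 (SE) above untreated cells at 24 hr after KBrO3 and 5.15 above them with co-exposure. From 4 to 24 hr it was at least 11-fold higher after KBrO3 and at least 38.5-fold higher with co-exposure in the deposited processed signal. These are lower bounds because the 4 hr arrays gave no signal well above background, and they are given for that signal only. Normexp, a model-based background correction, was run with an offset of 50 added to every signal. Its log2 differences between the times were 1.80 after KBrO3 and 3.42 with co-exposure using each spot's local background. With each array's median background they were 2.05 and 3.78, and all 4 are smaller folds than the bounds. The offset by itself lowers folds from background, so these values cannot test the bounds. Above untreated cells at 24 hr, normexp gave 0.55 and 2.05 with local and 1.96 and 3.46 with median background. Every other lower bound given here was likewise computed from the deposited processed signal alone. At 4 hr with co-exposure Robo3 was at least 1.09-fold below untreated cells. At 24 hr co-exposed cells stood 3.1-fold above cells given KBrO3 alone, and within the slide holding 2 arrays of each group the difference was 1.68.

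Robo3 was read by 2 overlapping probes, and the bases they share are shown because both were higher at 24 hr after KBrO3, though by different amounts. Each probe has 60 bases, and the array files place them on the minus strand at chr9:37344793-37344852 and chr9:37344833-37344890 in mm7, sharing the 20 bases cggttttagttgtcttggga. They are thus not independent measurements of the transcript. The other probe read −6.51, −6.59 and −6.53 in untreated cells, none well above background. At 24 hr it read −2.18, −2.19 and −2.24 after KBrO3 and −0.70, −0.79 and −0.74 with co-exposure. Against untreated cells these are at least 9.92-fold and at least 27.3-fold higher, and co-exposed cells were 1.46 above KBrO3 alone. The Robo4 probe lies on the plus strand of the same region, 2163 bases from the nearer Robo3 probe.

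**Figure D2:**
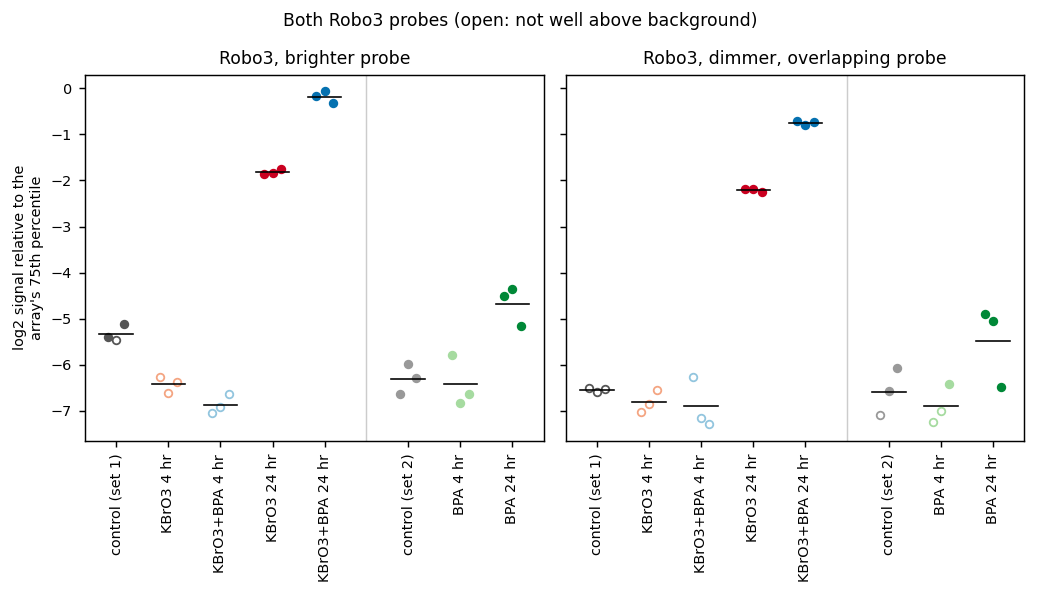
Level of the 2 overlapping Robo3 probes on each of the 24 arrays, as log2 signal relative to the array's 75th percentile (vertical axis) by group (horizontal axis). Open points are not well above background. Both probes read between −2.24 and −1.74 at 24 hr after KBrO3 and between −0.79 and −0.06 with co-exposure.

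With BPA alone Robo3 was also higher at 24 hr, though it stayed dim. The brightest probe read −6.64, −5.99 and −6.29 in the untreated cells of the second set and −5.79, −6.83 and −6.65 at 4 hr. At 24 hr it read −4.51, −4.35 and −5.16, above every other array of the set. The difference from control was 1.63 ± 0.33 (SE), or 3.1-fold, at 24 hr and −0.12 at 4 hr. The 2 slides that held a control array and a 24 hr array gave 1.48 and 1.94. The other probe gave 1.11 with overlapping groups, at −4.90, −5.05 and −6.49 against −7.10, −6.58 and −6.08.

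At 4 hr neither KBrO3 group had a Robo3 signal well above background, so the effect of added BPA has no measured size there. At 24 hr the difference was 1.63 for BPA added to KBrO3 and 1.63 for BPA alone, the latter against untreated arrays near background, at −6.64 to −5.99.

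Robo1, a main receptor of the Slit ligands, was lower at 24 hr in all 3 treatments. It read 0.48, 0.51 and 0.56 in untreated cells of the first set and 0.41, 0.42 and 0.33 at 4 hr after KBrO3. At 24 hr it read −0.45, −0.38 and −0.32 after KBrO3. With co-exposure it read 0.18, 0.13 and 0.34 at 4 hr and −0.62, −0.71 and −0.81 at 24 hr. With BPA alone it read 0.23, 0.11 and 0.50 at 24 hr and 1.27, 1.64 and 1.06 at 4 hr, against 1.71, 1.38 and 1.81 in untreated cells. Each 24 hr group lay below its untreated arrays without overlap.

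The Robo1 differences at 24 hr were −0.90 ± 0.064 (SE) after KBrO3, −1.23 with co-exposure and −1.35 ± 0.22 with BPA alone. These are levels 1.87-, 2.34- and 2.55-fold lower. At 4 hr they were −0.13, −0.30 and −0.31 in that order. On the 2 slides that held a control array and a BPA array at 24 hr the differences were −1.16 and −1.70.

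Robo2 and Robo4 were at or near background in the first set and were measured on all 9 arrays of the second. Robo2, a Slit receptor of neurons and the developing kidney, has 6 probes, and its brightest was not well above background on any first-set array, at −7.69 to −6.20. Another was so on 2 of them, 1 at 24 hr after KBrO3 (−4.13) and 1 at 24 hr with co-exposure (−4.69), while the other replicates of those groups read −7.92 to −7.40. In the second set the brightest probe was measured on all 9 arrays, at −4.22, −4.32 and −4.39 in untreated cells and −4.87, −4.79 and −4.84 at 24 hr with BPA, a difference of −0.52 ± 0.16 (SE). Robo4, the Robo of endothelial cells, was well above background on 4 of 15 first-set arrays. It was so on 1 untreated array at −4.64 and on none at 24 hr, where levels ran from −7.06 to −5.81. In the second set Robo4 ran from −5.72 to −3.79 over the 9 arrays, and the differences with BPA, 0.70 and 0.87, had an SE of 0.43.

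Unc5b was higher at 4 hr and lower at 24 hr after KBrO3, with and without BPA. Unc5b encodes a netrin receptor of vessels that can trigger apoptosis without ligand and is a known target of p53. It read 3.28, 3.28 and 3.25 in untreated cells and 4.47, 4.51 and 4.46 at 4 hr after KBrO3. At 24 hr it read 1.94, 1.90 and 2.11. With co-exposure it read 4.13, 4.13 and 3.88 at 4 hr and 2.48, 2.65 and 2.11 at 24 hr. The 4 hr groups lay above and the 24 hr groups below the untreated arrays, without overlap.

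The Unc5b difference from untreated cells was 1.21 ± 0.11 (SE), or 2.31-fold higher, at 4 hr after KBrO3 and −1.28, or 2.44-fold lower, at 24 hr. With co-exposure it was 0.78, or 1.72-fold higher, at 4 hr and −0.86, or 1.81-fold lower, at 24 hr. Between the times the level was 5.63-fold lower after KBrO3 and 3.11-fold lower after co-exposure. On the slide that held 1 untreated array and the 3 arrays at 4 hr after KBrO3 the difference was 1.23. With BPA alone the replicates spread widely, at 2.69, 0.69 and 1.96 in untreated cells, 2.71, 3.54 and 2.90 at 4 hr and 3.05, 1.22 and 1.38 at 24 hr. The 4 hr difference was 1.26 ± 0.59 (SE), and the single slide that held both gave 0.11. At 24 hr the 2 slides gave 2.36 and −0.74, so the direction differed between slides.

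Unc5c, another netrin receptor of the same family, was lower at 4 hr with co-exposure and higher at 24 hr after KBrO3 alone. It read −0.78, −0.53 and −0.46 in untreated cells and −0.72, −0.61 and −0.70 at 4 hr after KBrO3. With co-exposure at 4 hr it read −1.06, −1.03 and −1.06, below every untreated array, a difference of −0.46. It read −0.21, −0.05 and −0.08 at 24 hr after KBrO3, a difference of 0.48 ± 0.074 (SE). With co-exposure at 24 hr it read −0.65, −0.74 and −0.74, within the untreated range (a difference of −0.12, and 0.20 under median scaling), and the difference between those treatments was −0.60. With BPA alone at 24 hr it read −0.21, −0.97 and −0.46 against 0.31, −0.02 and 0.30, a difference of −0.74 ± 0.24 (SE).

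**Figure D3:**
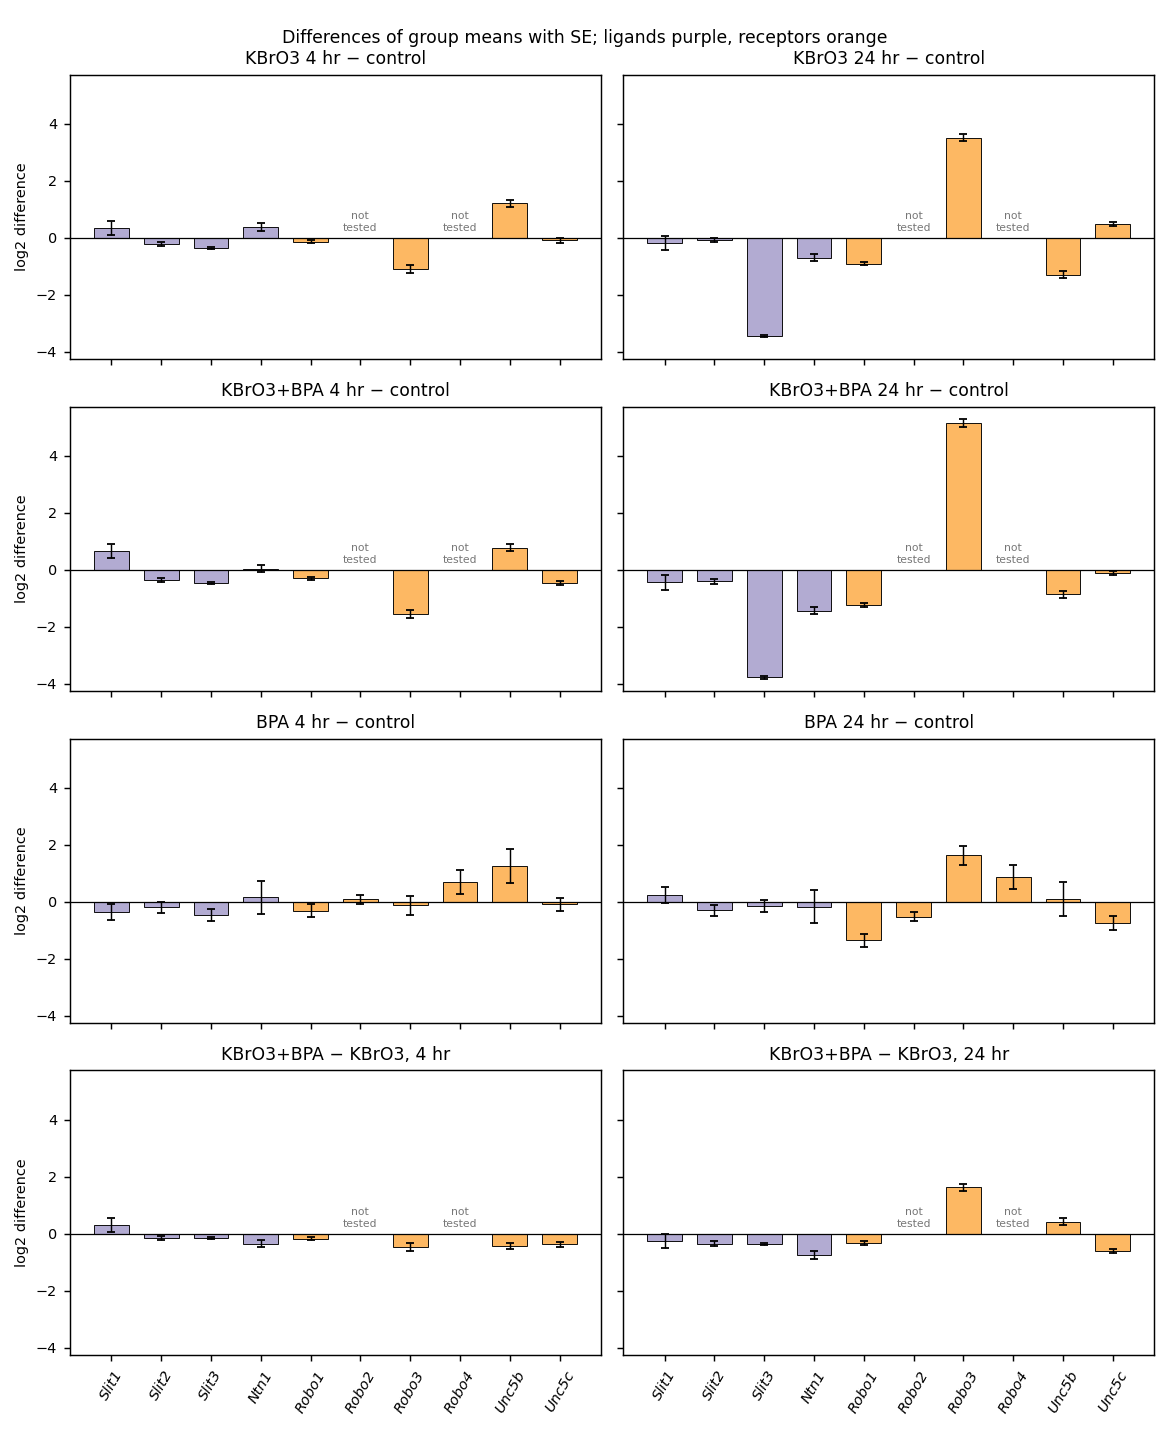
Log2 difference of group means (vertical axis) for each tested member (horizontal axis) in each comparison, with bars of 1 SE from the linear model of its set. Ligands are purple and receptors orange. Robo3 stands above the other members at 24 hr in both KBrO3 panels, at 3.51 and 5.15, and Slit3 below them, at −3.43 and −3.77.

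Counted over the 8 members tested in the first set, 1 was called at 4 hr after KBrO3 (Unc5b, where 31.2% of all tested coding genes were called) and 4 at 24 hr (Robo1, Robo3, Slit3 and Unc5b, background 20%). With co-exposure 1 was called at 4 hr (Robo3, background 35.9%) and 4 at 24 hr (Robo1, Robo3, Slit3 and Ntn1, background 23.8%). Robo3 entered the first-set test through its 24 hr groups, where it is high, since it was well above background on 2 of 3 untreated arrays and on none at 4 hr. Its call at 4 hr thus sets untreated cells against a group with no measured signal. The Ntn1 call held under 2 of 10 other settings and in 3 of 15 fits that each left out 1 array, over which its difference ran from −1.55 to −1.30. Over the settings the Ntn1 difference ran from −1.69 to −0.68, and the smallest size came from normexp with each array's median background. The Unc5b calls at 4 and 24 hr after KBrO3 also held in 3 of 15 such fits each. For BPA added to KBrO3, none was called at 4 hr (background 6%) and 1 at 24 hr (Robo3, background 7.44%). For BPA alone, limma called none of 10 at either time, with backgrounds of 0.114% at 4 hr and 0.0318% at 24 hr. With the Benjamini-Hochberg adjustment at 0.05 it called none at 4 hr and Robo1 and Robo3 at 24 hr (backgrounds 4.68% and 4.31%). The median difference over the members tested was −0.44 at 24 hr after KBrO3, against −0.07 over all coding genes, and −0.65 with co-exposure, against −0.06. Between 4 and 24 hr, 4 were called for KBrO3 (background 29.7%), 5 for co-exposure (34.7%) and 1 for the change in the effect of added BPA (Robo3, whose 4 hr groups were at background, 4.92%). Groups that do not overlap are common in these data. At 4 hr 6 of 8 members did not overlap with untreated cells after KBrO3 (80.7% of all tested coding genes) and 7 with co-exposure (85.6%). At 24 hr 6 did so after KBrO3 (73%) and 6 with co-exposure (73.4%). For BPA alone 2 of 10 did so at 4 hr (29.2%) and 5 at 24 hr (25.4%). For BPA added to KBrO3 6 of 8 did so at 4 hr (78.3%) and 7 at 24 hr (52%). Since the members were chosen with these differences known, nothing is read from the counts.

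No slide held both untreated cells and cells 24 hr after KBrO3, or both untreated and co-exposed cells, so there the slide and the treatment cannot be told apart. The same holds for co-exposure against KBrO3 alone at 4 hr and for 24 against 4 hr after KBrO3 alone. No slide held both times of co-exposure either, and their slides are linked only through arrays at 24 hr after KBrO3. The scale itself moved some comparisons. Scaling by the median in place of the 75th percentile shifted all differences by 0.149 at 24 hr after KBrO3 and by 0.318 with co-exposure at 24 hr. Shifts of this size are below a 1.5-fold step, so they could not change the sign of a difference counted as called above. Of the smaller differences, Slit2 at 24 hr after KBrO3 went from −0.07 to 0.080, Ntn1 with co-exposure at 4 hr from 0.04 to −0.10 and Unc5c with co-exposure at 24 hr from −0.12 to 0.20. The size of the Robo3 difference depended on background correction. Normexp with each spot's local background gave 0.55 in place of 3.51 and 2.05 in place of 5.15, and neither was called. That setting raised the 5th percentile of corrected signal to 1374 on 1 of the 3 untreated arrays. With each array's median background normexp gave 1.96 and 3.46, both called. Either form added the offset of 50, which by itself lowers folds from dim signals. The difference of added BPA at 24 hr lost its call with local background too, at 1.5 in place of 1.63.

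The genes whose first-set pattern was most like Robo3 were chosen by Pearson's r over the 15 arrays, among 2883 coding genes with group means spanning at least 2 on the log2 scale. They were Zfp692 (r = 0.993), Atp6v0e2 (0.992), 1700007K13Rik (0.991), Odf2 (0.989) and Perp (0.988). The group structure of the arrays is common to all genes, so these r values describe the pattern only. 1700007K13Rik, with the largest range of the 5, was 2.56 above untreated cells at 24 hr after KBrO3 and 4.42 with co-exposure. Perp, a target of p53 that encodes a tetraspan membrane protein, was 1.49 and 2.47 above them. At 24 hr with BPA alone the 5 differences ran from 0.24 (Perp) to 1.36 (1700007K13Rik).

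The rest of the pathway was read from 5 lists that hold 124 other guidance genes on the array, of which 108 could be tested in the first set. The lists were drawn up with earlier results of these data known, and the calls below come from the same limma fits. Over all coding genes tested, 14.7% were called higher and 16.6% lower at 4 hr after KBrO3, and 7.98% and 12% at 24 hr. With co-exposure 16.2% and 19.7% were called at 4 hr, and 10.9% and 12.9% at 24 hr. For BPA added to KBrO3 2.8% were called higher and 3.2% lower at 4 hr, and 3.86% and 3.59% at 24 hr. In all, 63 of the 117 listed genes tested in either set (53.8%) were called in at least 1 comparison with untreated cells, as were 45.9% of all coding genes tested. None was called for BPA alone. The other netrin receptors and ligands, the repulsive guidance molecules (RGM) and the FLRT proteins had 11 of 20 genes tested. Of these 2 rose and 1 fell at 4 hr after KBrO3, and none rose and 4 fell at 24 hr. With co-exposure 2 rose and 2 fell at 4 hr, and none rose and 5 fell at 24 hr.

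Unc5a, another UNC5 receptor, rose by 2.07 on the log2 scale (limma, Bonferroni-adjusted p = 1.53e-07) at 4 hr after KBrO3 and by 1.37 with co-exposure. Rgma, a ligand of neogenin, fell by 1.82 and fell by 2.14 in the same groups. Flrt3, a membrane protein that binds UNC5 and Robo receptors, fell by 2.37 at 24 hr after KBrO3 and fell by 2.75 with co-exposure. Neo1, which encodes neogenin, stood 0.58 and 0.55 above untreated cells after KBrO3 at 4 and 24 hr, without passing the call. Dcc, which encodes the netrin receptor DCC, was not well above background on any of the 24 arrays. Unc5d and Ntn4 were not so on any first-set array. For added BPA the 1 gene called, Ntng1 at 24 hr, was not well above background in either group.

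The genes that carry Slit, Robo and netrin signals inside the cell were all tested, 34 of 34. Of these 6 rose and 4 fell at 4 hr after KBrO3, and 2 rose and 4 fell at 24 hr. With co-exposure 7 rose and 4 fell at 4 hr, and 1 rose and 8 fell at 24 hr. Srgap1, a partner of Robo inside the cell, was at least 2.98-fold higher at 4 hr after KBrO3 and at least 2.96-fold higher with co-exposure. Dapk1, a kinase in the death signal of UNC5 receptors, fell by 1.76 at both times after KBrO3, and fell by 2.12 at 4 hr with co-exposure. Enah, an actin regulator that binds Robo, fell by 1.5 at 24 hr with co-exposure. Arhgap39, a Rac and Cdc42 regulator of Robo signaling, rose by 1.19 in the same group. Abl2, a tyrosine kinase of the cytoskeleton, rose by 0.96 at 24 hr after KBrO3. For BPA added to KBrO3, 1 gene of the list was called, Prkca (protein kinase C alpha), which rose by 0.79 at 4 hr.

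Heparan sulfate, which Slit needs to bind Robo, and the proteins that cut or process ligands and receptors made a list of 18 genes. At 4 hr after KBrO3 4 rose and none fell, and at 24 hr 1 rose and 4 fell. With co-exposure 2 rose and 1 fell at 4 hr, and none rose and 6 fell at 24 hr. Ext1, which extends the heparan sulfate chain, rose by 1.26 and 0.63 at 4 and 24 hr after KBrO3 and by 1.62 at 4 hr with co-exposure. Hs6st1, a heparan sulfate sulfotransferase, fell by 0.89 at 24 hr after KBrO3 and was the 1 gene of the list called for added BPA, where it fell by 0.61 at 4 hr. With co-exposure Dag1, the dystroglycan that binds Slit, fell by 0.68 at 4 hr, and Bmp1, a protease of matrix proteins, fell by 1.11 at 24 hr.

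Semaphorins with their receptors, of which 28 were tested, and ephrins with Eph receptors, of which 17 were, serve as the other guidance systems. In the semaphorin list 3 rose and 4 fell at 4 hr after KBrO3 and 1 rose and 9 fell at 24 hr, and with co-exposure 3 rose and 9 fell at 4 hr and none rose and 9 fell at 24 hr. Sema7a, a membrane-anchored semaphorin, rose by 3.49 at 4 hr after KBrO3 (limma, Bonferroni-adjusted p = 1.05e-07) and by 4.28 with co-exposure. Plxnc1, its plexin receptor, fell by 3.33 at 24 hr after KBrO3 and was at least 7.79-fold lower at 24 hr with co-exposure. Of the others, Sema6b fell by 1.11 at 4 hr and Sema3e rose by 1.53 at 24 hr after KBrO3, and Plxnb1, a plexin receptor, fell by 1.59 at 4 hr with co-exposure. For added BPA 2 genes fell at 4 hr and 4 fell at 24 hr, led by the secreted Sema3d, which fell by 1.03 and fell by 1.72.

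In the ephrin list 3 rose and 6 fell at each time after KBrO3, and with co-exposure 4 rose and 7 fell at 4 hr and 2 rose and 6 fell at 24 hr. Epha2, an Eph receptor, rose by 2.70 at 4 hr after KBrO3, and Efna4, an ephrin ligand, fell by 2.38 there and fell by 2.27 with co-exposure. Efnb2, an ephrin ligand of vessels, rose by 1.25 at 24 hr after KBrO3 and by 2.55 at 4 hr with co-exposure. Epha1 fell by 2.06 at 24 hr after KBrO3 and fell by 2.57 with co-exposure, where Efnb3 rose by 0.86. For added BPA 3 genes fell at 4 hr, led by Epha2, which fell by 1.07, and 2 fell at 24 hr, led by Epha3, which fell by 1.19.

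**Figure D4:**
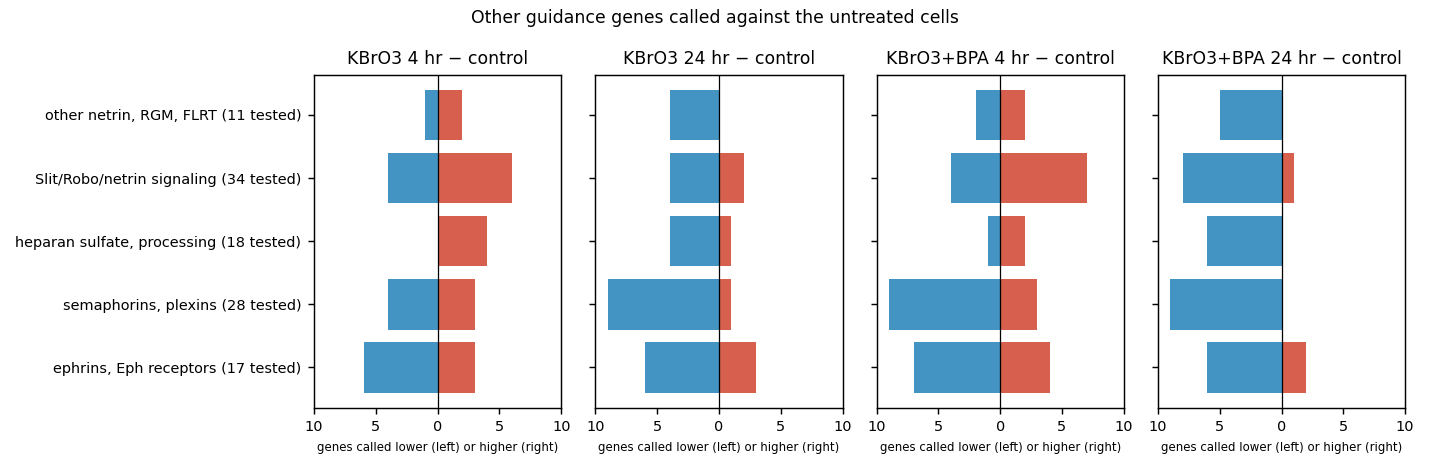
Number of other guidance genes called lower (to the left) or higher (to the right) than untreated cells, for 5 lists (rows, with the number tested) and each comparison (panels), by limma with Bonferroni p below 0.01 and a fold beyond 1.5. At 24 hr with co-exposure 5 to 9 genes of each list were called lower, and 0 to 2 higher.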

How the data were processed

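Total RNA of 24 cultures was labeled with Cy3 and hybridized to Agilent whole mouse genome arrays. The deposited values are fluorescence intensity values per spot: per the file headers, the authors' Agilent Feature Extraction (versions 9.5.3.1 and 12.0.0.7, with probe positions on mm7 and mm9) subtracted background and flagged spots. The submitters' processing notes name version 12.0. From these, log2 of the processed signal minus the array's 75th percentile was computed, after leaving out control spots and averaging spots of a probe (43379 spots, 41174 probes). Probes tested numbered 27310 and 31810.

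Each set was fitted alone with limma 3.58.1 in R 4.3.3 (lmFit, eBayes, 2-sided), all groups of the set together. Calls need a Bonferroni p below 0.01 and a fold beyond 1.5, as the methods of the study do. Effects of BPA in both sets were compared in 1 fit of all 24 arrays. Differences between times combine the comparisons with control and are therefore described only. Named genes are the 10 members, the called gene with the largest rise and fall per list and comparison, 5 fixed netrin genes, and the 5 genes most like Robo3. Fits were tested on simulated data. The members and lists were chosen with earlier results of these data known. Alternatives changed scaling, background, filter, probe choice, adjustment, weights and blocks, and left out each array. Second-set normexp used median spot signals, since mean signals were not in the columns used here. The number of arrays limits the precision.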

Additional observations from a re-analysis of the deposited data

Results flagged for a closer look

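The differences between 24 and 4 hr given here are those whose size and limma p passed the same threshold as the counts of calls. They combine the comparisons with which the genes were chosen, so they are descriptions and not a test that an effect differed between the times. After KBrO3 alone they were −0.77 on the log2 scale for Robo1, −3.09 for Slit3 and −2.49 for Unc5b, where 29.7% of all tested coding genes passed. With co-exposure they were −0.93 for Robo1, −3.3 for Slit3, −1.48 for Ntn1 and −1.64 for Unc5b, where 34.7% passed. Over the other settings the Ntn1 value ran from −1.58 to −0.68 and passed in 2 of 11. With co-exposure Robo1 ran from −0.99 to −0.47 and Unc5b from −1.64 to −1.18, and each passed in 8 of 12. After KBrO3 alone Robo1 ran from −0.78 to −0.62 and passed in 6 of 11. The Slit3 values and the Unc5b value after KBrO3 alone passed in every setting run. In the deposited processed signal Robo3 was at least 11-fold higher after KBrO3 and at least 38.5-fold higher with co-exposure, as none of its 4 hr arrays was well above background. Normexp gave smaller log2 differences, 1.80 and 3.42 with local and 2.05 and 3.78 with median background. Its offset of 50 by itself lowers folds from background, so these values cannot test the bounds.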

How the results depend on the processing

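Of 21 member differences past the call, 0 changed sign in 229 recalculations and 165 kept the call. Many of these recalculations could not change a sign. The deposited series values equal the input, and the filters, the replicate block and only the arrays compared leave each difference as it was. The Slit3 differences at 24 hr kept the call under each setting that could be run. Counts of members called at 4 hr after KBrO3 (1) became 0 with median scaling, normexp, no filter on dim probes, slide as a fixed block or the replicate block, and 2 with Benjamini-Hochberg or any probe. At 24 hr after KBrO3 (4) they became 2 with median scaling, slide as a random block or only the arrays compared, and 1 with normexp. For co-exposure at 4 hr (1) they became 2 with quantile normalization, 3 with Benjamini-Hochberg, and 0 with normexp by either background, only probes well above background on every array, the random slide block, error weights or only the arrays compared. For co-exposure at 24 hr (4) they became 2 with median scaling, normexp, only probes well above background or only the arrays compared. For BPA added to KBrO3 at 24 hr (1) they became 0 with normexp, only probes above background, the fixed slide block or only the arrays compared, and 3 with Benjamini-Hochberg. Between times, normexp gave 2 in place of 4 for KBrO3. For co-exposure, 5 became 2 with median scaling, the fixed slide block or only the arrays compared, 1 with normexp and 3 with only probes above background. The change in the added BPA effect (1, Robo3, with its 4 hr groups at background) became 0 with normexp, only probes above background, the random slide block, the replicate block, error weights or only the arrays compared, and 2 with Benjamini-Hochberg. With Benjamini-Hochberg, BPA alone at 24 hr went from 0 to 2, its change between times from 0 to 2, and added against alone at 24 hr from 0 to 1. The other guidance genes called (63) became 19 with normexp and 23 with only the arrays compared. The causes were not tested.

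Leaving out each array in turn gave 0 to 1 members called at 4 hr and 3 to 4 at 24 hr after KBrO3, and 0 to 1 and 3 to 4 with co-exposure. It gave 0 to 0 for BPA alone at both times, for its change between times, for BPA added at 4 hr and for added against alone, 0 to 2 for BPA added at 24 hr, 3 to 4 and 4 to 5 between times, 0 to 1 for the change in the added effect, and 51 to 67 other guidance genes. Of the 21 calls, 13 held whichever array was left out and 8 were lost for some. Local-background normexp raised the 5th percentile of corrected signal to 1374 on 1 untreated array of the first set. In the second set it reached 651 on 1 untreated array and 874 on 1 array at 4 hr with BPA. The other arrays ran from 58.3 to 154. Normexp with each array's median background was therefore added after seeing the data. It gave 1.96 and 3.46 for Robo3 at 24 hr, both still called, where local-background normexp gave 0.55 and 2.05, neither called.

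After group means were subtracted, same-numbered arrays correlated from −0.212 to 0.106 in the first set (30 pairs, mean −0.029). In the second set they correlated from −0.384 to 0.648 (9 pairs, mean 0.002). Replicate numbers thus showed no pairing of arrays in the first set, and the wide range in the second does not settle it there. With the replicate block, 15 of 21 calls held.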
